A study of Homo sapiens and Mus musculus with 27 samples.

Results

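Gene expression was compared between untreated cultures carrying the labels of a pair of human breast cancer cell lines, with 3 libraries labelled HCC1937 and 3 labelled MDA-MB-231. The 6 libraries were chosen by their labels as the vehicle groups of the cell lines and are 6 of the 27 libraries of the series. Every one was made from poly-A-selected RNA of an established cell line in culture, and neither the vehicle's substance nor the time of treatment is given in the labels. The 12 other human libraries, of HCC1937 given TM at 10 µM or AMD3100 at 10 µM and of MDA-MB-231 given bortezomib at 10 nM together with TM at 10 µM or with AMD3100 at 10 µM, were used to show whether a difference was also present under treatment and in alternative fits described at the end. One of them, the first AMD3100 library labelled HCC1937, stood apart with 20639 features counted and 19.9% mitochondrial counts, so most shares over all 9 libraries of a line are given with and without it. The titles call the 3 libraries of a line biological replicates, but nothing says that they came from separate cultures, so p-values measure the spread between these libraries.

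As background, HCC1937 is known as a basal-like, epithelial breast cancer line with a mutated BRCA1 gene. MDA-MB-231 is known as a mesenchymal-like breast cancer line that grows without oestrogen receptor, with a mutation that activates BRAF, another in NF2, and a deletion of the CDKN2A locus. BRAF drives the ERK kinase cascade, whose output includes its own feedback inhibitors, the dual-specificity phosphatases and Sprouty proteins. NF2 encodes merlin, an upstream activator of the Hippo kinases, which hold the coactivator YAP out of the nucleus and away from the TEAD transcription factors. Among the drugs of the series, bortezomib blocks the proteasome and AMD3100 blocks the chemokine receptor CXCR4.

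The libraries labelled HCC1937 go against their label for several genes that define the line, as described next, so they are called by their label throughout. The libraries of each line came in a count table of their own, and line and table cannot be told apart. The totals were 39033097 to 41675186 counts in the libraries labelled HCC1937 and 41808815 to 47208527 counts in MDA-MB-231. Mitochondrial transcripts took 11.1 to 11.6% of counts in the libraries labelled HCC1937 and 3.94 to 4.06% in MDA-MB-231, and 29335 to 29849 features had a count in the libraries labelled HCC1937, against 25020 to 25423 in MDA-MB-231. Levels below are CPM, counts scaled to a common library size with TMM factors, which depend on transcript length and are therefore compared between libraries and not between genes. A gene was called by edgeR's quasi-likelihood test at an adjusted p under 0.05 over 18505 tested features, and fold changes are log2 values of the libraries labelled HCC1937 over MDA-MB-231, given with their SE. By this rule 79.2% of the tested features were called, 42.2% (7810) higher and 37.0% (6847) lower in the libraries labelled HCC1937, so being called is the usual state of a gene here. A second rule of a fitted difference of 4-fold or more left 18.7% (3461) higher and 12.5% (2313) lower. Counts of list members below are to be read beside these shares. The median log2 fold change over all tested features was 0.14 with TMM factors, 0.09 with DESeq2's size factors and 0.25 with upper-quartile factors, so that differences of this order depend on the scaling.

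Several markers of basal and luminal epithelium, by which HCC1937 is known, were near 0 in the libraries that carry this label. KRT5, a keratin of basal epithelium, had 4, 0 and 0 counts in the libraries labelled HCC1937 and none in MDA-MB-231, and its partner KRT14 had 0, 4 and 0 counts in the libraries labelled HCC1937 and 1, 8 and 0 in MDA-MB-231. EPCAM, the epithelial cell adhesion molecule, had 0.0231, 0.129 and 0 CPM in the libraries labelled HCC1937, against 3.35, 3.51 and 2.86 CPM in MDA-MB-231. KRT19, a keratin of simple epithelium, had 0.0462, 0 and 0.132 CPM in the libraries labelled HCC1937, against 156, 189 and 141 CPM in MDA-MB-231. For EPCAM and KRT19 all 9 libraries labelled HCC1937 lay below all 9 of MDA-MB-231, as for 23.8% of tested features, or 25.6% without the AMD3100 library that stood apart. CDH1, which encodes E-cadherin, reached 0.669, 0.343 and 0.748 CPM in the libraries labelled HCC1937 and 0.0950, 0 and 0 CPM in MDA-MB-231, so both lines had little of it. Among the 7 fixed markers of breast epithelium, KRT8 and KRT18 alone were abundant in the libraries labelled HCC1937. KRT8 had 1689, 1592 and 1666 CPM in the libraries labelled HCC1937, against 425, 516 and 395 CPM in MDA-MB-231 (log2 fold change 1.89 ± 0.10, adjusted p = 1.48e-09 by edgeR). Its partner KRT18 had 558, 582 and 589 CPM in the libraries labelled HCC1937, against 169, 186 and 157 CPM in MDA-MB-231 (log2 fold change 1.75 ± 0.08, adjusted p = 8.74e-10 by edgeR). Both keratins of simple epithelium were thus several times higher in the libraries labelled HCC1937, while the third, KRT19, was near 0 in them, and for both the 3 libraries labelled HCC1937 were above the 3 of MDA-MB-231, as for 43.7% of tested features. For only 1 of the 6 tested simple keratins did all 9 libraries labelled HCC1937 lie above all 9 of MDA-MB-231. KRT8 and KRT18 therefore did not both do so. Of all tested features 22.0% did, or 27.8% without the AMD3100 library that stood apart. BRCA1 transcript itself was present, with 37.7, 40.0 and 34.2 CPM in the libraries labelled HCC1937, against 14.01, 9.95 and 18.4 CPM in MDA-MB-231, and a count of its reads says nothing about mutation.

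**Figure D1:**
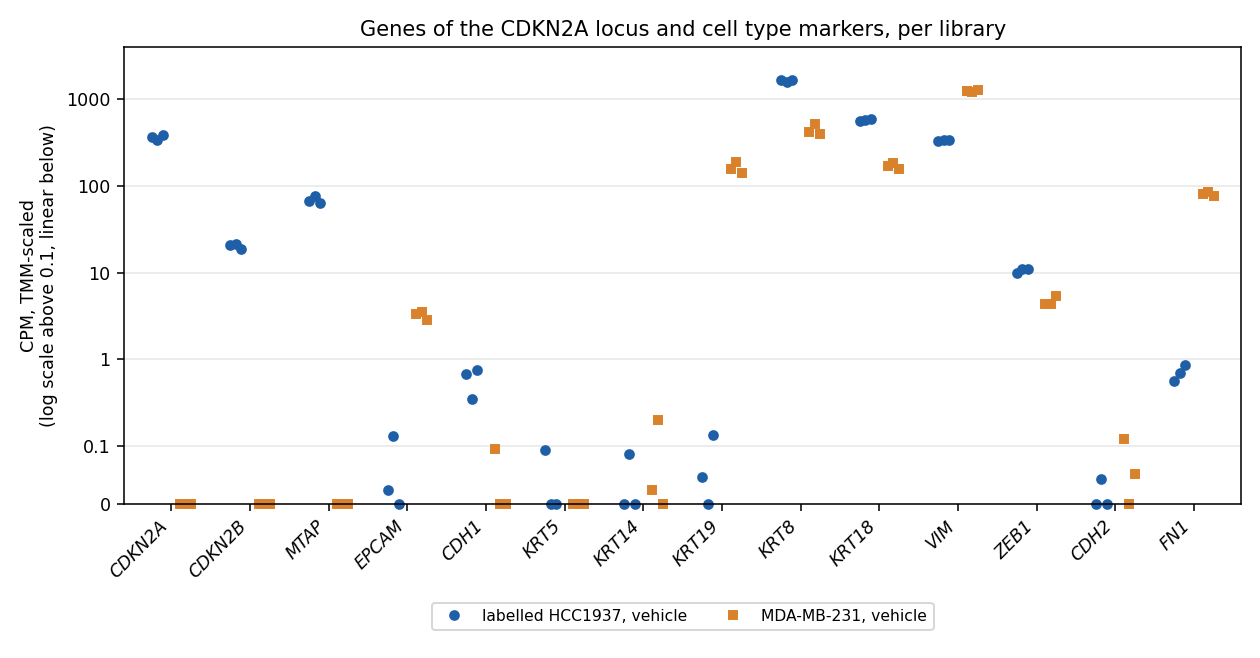
CPM of genes of the CDKN2A locus and of cell type markers in each vehicle library, on an axis that is logarithmic above 0.1 and linear below; circles are the libraries labelled HCC1937 and squares MDA-MB-231. CDKN2A was at 0 in MDA-MB-231, and KRT19 and EPCAM were near 0 in the libraries labelled HCC1937.

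The MDA-MB-231 libraries matched the known traits of their line at the CDKN2A locus and in VIM, and departed from them in some secreted factors. The fixed mesenchymal markers were mixed. VIM and FN1 were higher in MDA-MB-231, ZEB1 was lower there, and CDH2 was near 0 in both lines. VIM, the intermediate filament vimentin, had 331, 337 and 339 CPM in the libraries labelled HCC1937, against 1265, 1212 and 1299 CPM in MDA-MB-231 (log2 fold change -1.91 ± 0.07, adjusted p = 8.01e-11 by edgeR). It was higher in MDA-MB-231 in all 9 libraries of each line, as were 23.8% of tested features, or 25.6% without the AMD3100 library that stood apart. IL6, a cytokine that MDA-MB-231 is known to secrete in quantity and which is named here after its values were seen, had only 0.208, 0.107 and 0.0880 CPM in the libraries labelled HCC1937, against 0.617, 0.319 and 0.284 CPM in MDA-MB-231. CXCL8, a chemokine known for the same, had no count in the libraries labelled HCC1937, against 0.736, 0.688 and 0.723 CPM in MDA-MB-231. Both were thus under 1 CPM in every library. FN1, the matrix protein fibronectin, was present in MDA-MB-231 and nearly lacking from the libraries labelled HCC1937, with 0.554, 0.687 and 0.858 CPM in the libraries labelled HCC1937, against 81.9, 85.1 and 76.9 CPM in MDA-MB-231. CDH2, or N-cadherin, was near 0 in both, at 0, 2 and 0 counts in the libraries labelled HCC1937 and 5, 0 and 2 in MDA-MB-231. ZEB1, a repressor of epithelial genes, had 9.92, 11.1 and 10.9 CPM in the libraries labelled HCC1937, against 4.34, 4.32 and 5.37 CPM in MDA-MB-231. Markers of other cell types were low in both lines. Of 12 blood cell markers 2 had counts enough to be tested, among them CSF1R, a receptor of macrophages, with means of 5.33 CPM in the libraries labelled HCC1937 and 0.840 CPM in MDA-MB-231. PTPRC, the leukocyte antigen CD45, had a mean of 0.00769 CPM in the libraries labelled HCC1937 and no count in MDA-MB-231. The summed level of the 12 blood markers was 5.88 to 6.98 CPM in the libraries labelled HCC1937 and 0.671 to 1.42 CPM in MDA-MB-231. For 12 markers of endothelium and stroma, 8 of them tested, it was 11.3 to 12.9 CPM and 8.49 to 10.9 CPM in the same order of lines. The part of such cells in the differences below was not tested.

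A stretch of chromosome 9p was active in the libraries labelled HCC1937 and silent in MDA-MB-231, where silent means at most 3 counts over the 3 vehicle libraries of a line. CDKN2A, which encodes the cell cycle inhibitor p16 and the tumour suppressor ARF (ENSG00000147889; GRCh38, GENCODE 29, chr9:21967753-21995301, minus strand), had 16142, 16026 and 17532 counts in the libraries labelled HCC1937 and 0 counts in all 3 MDA-MB-231 vehicle libraries. This is at least 14876-fold higher; bounds of this kind set the silent group at 3 counts in total and cover counting error only. Its neighbour CDKN2B, the p15 inhibitor, had 913, 1001 and 843 counts in the libraries labelled HCC1937, against 0 in MDA-MB-231. MTAP, the methylthioadenosine phosphorylase of methionine salvage, had 2887, 3537 and 2903 counts in the libraries labelled HCC1937, again against 0 in MDA-MB-231. Silence thus covered both cell cycle inhibitors and the metabolic gene beside them. Towards the telomere, KLHL9 had 837, 906 and 852 counts and IFNE, an interferon gene, had 68, 69 and 72 counts in the libraries labelled HCC1937, and neither had a count in MDA-MB-231. Towards the centromere, DMRTA1 had 157, 171 and 229 counts in the libraries labelled HCC1937 and 0 in MDA-MB-231. Among coding genes with a mean of at least 1 CPM in either line, 7 in a row were silent in MDA-MB-231. They spanned chr9:21329671-23826337, from KLHL9 to ELAVL2. HACD4, with only 14, 8 and 16 counts in the libraries labelled HCC1937, had none in MDA-MB-231 either. FOCAD, which lies next on the telomeric side (chr9:20658309-20995955), was low and not silent in MDA-MB-231: it had 1478, 1711 and 1481 counts in the libraries labelled HCC1937, against 54, 51 and 68 in MDA-MB-231 (log2 fold change 4.59 ± 0.17, adjusted p = 8.66e-11 by edgeR). The long noncoding gene MIR31HG had 321, 260 and 252 counts in the libraries labelled HCC1937 and 0, 0 and 6 in MDA-MB-231, and CDKN2B-AS1, which overlaps CDKN2B, had 250, 357 and 316 and 0, 0 and 1; whether counting used strand is not given, so antisense reads are uncertain. For the 9 genes of this stretch named here, HACD4 and ELAVL2 left aside, the 9 libraries labelled HCC1937 lay above the 9 of MDA-MB-231, as for 22.0% of tested features, or 27.8% without the AMD3100 library that stood apart.

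**Figure D2:**
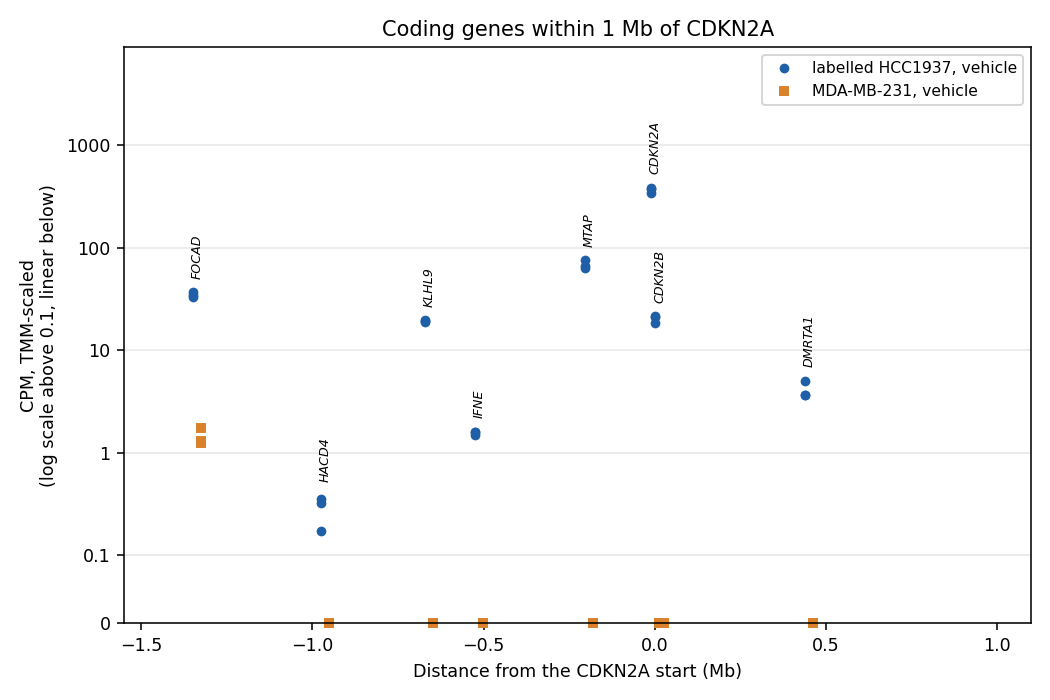
CPM in each vehicle library of the coding genes within 1 Mb of CDKN2A, by distance of their start sites in Mb; circles are the libraries labelled HCC1937 and squares MDA-MB-231. In MDA-MB-231 the genes from HACD4 to DMRTA1 were at 0 while FOCAD had counts in all 3 libraries.

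Other tumour suppressors and oncogenes that mark the lines moved less. BRAF had 20.4, 20.2 and 22.1 CPM in the libraries labelled HCC1937, against 9.57, 7.05 and 10.8 CPM in MDA-MB-231 (log2 fold change 1.19 ± 0.16, adjusted p = 1.94e-05 by edgeR). It was higher in the libraries labelled HCC1937, and its log2 fold change shrank to 0.44 once a trend with GC content, described at the end, was removed. NF2 had 51.8, 48.1 and 50.1 CPM in the libraries labelled HCC1937, against 40.2, 48.7 and 42.7 CPM in MDA-MB-231 and was not called (adjusted p = 0.128 by edgeR). RB1, the retinoblastoma protein, had 19.6, 22.8 and 20.2 CPM in the libraries labelled HCC1937, against 33.3, 20.3 and 32.7 CPM in MDA-MB-231 (log2 fold change -0.46 ± 0.17, adjusted p = 0.0271 by edgeR).

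The largest differences were genes on in one line and without a count in the other. In all, 58 coding genes had a mean of at least 20 CPM in the libraries labelled HCC1937 and no count in MDA-MB-231, and 41 had no count in the libraries labelled HCC1937 and at least 20 CPM in MDA-MB-231. PRSS56, a serine protease gene, reached 2593, 2368 and 2561 CPM in the libraries labelled HCC1937, against 0 counts in every MDA-MB-231 vehicle library, at least 101503-fold higher. It lies on chromosome 2 next to ECEL1, an endopeptidase of neurons, which had 739, 710.4 and 761 CPM in the libraries labelled HCC1937, against 0 counts in every MDA-MB-231 vehicle library, at least 29834-fold higher. ALPI and CHRND, on either side, were silent in MDA-MB-231 as well. The 4 make up 1 silent stretch (chr2:232456123-232536667) among coding genes with a mean of at least 1 CPM in either line. PRSS21, or testisin, had 259, 242 and 254 CPM in the libraries labelled HCC1937, against 0 counts in every MDA-MB-231 vehicle library, at least 10192-fold higher. GDA, the guanine deaminase, had 109, 109.5 and 108 CPM in the libraries labelled HCC1937, against 0 counts in every MDA-MB-231 vehicle library, at least 4407-fold higher. The ligand WNT6 and the ERK phosphatase DUSP2 had 102 and 99.7 CPM in mean in the libraries labelled HCC1937 and no count in MDA-MB-231. NPTX1, a neuronal pentraxin, had 517, 516 and 509 CPM in the libraries labelled HCC1937 and 1 count in all of MDA-MB-231, a ratio of 62491-fold (95% counting interval 11216 to 2468260.0).

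In the other direction, FAM171A1 had 0 counts in the libraries labelled HCC1937, against 155, 177 and 168 CPM in MDA-MB-231, at least 7503-fold lower. FOXA2, a forkhead factor of endoderm, had 0 counts in the libraries labelled HCC1937, against 128, 157 and 125 CPM in MDA-MB-231, at least 6179-fold lower. SOX9, a factor of stem and progenitor cells in many epithelia, had 0 counts in the libraries labelled HCC1937, against 87.9, 87.9 and 86.1 CPM in MDA-MB-231, at least 3942-fold lower. MLPH, melanophilin, which links vesicles to myosin, had 0 counts in the libraries labelled HCC1937, against 86.2, 98.6 and 81.6 CPM in MDA-MB-231, at least 4011-fold lower. Transcription factors of development were thus among the genes found in MDA-MB-231 alone. TFPI2, an inhibitor of serine proteases, had no count in the libraries labelled HCC1937 and 76.9, 72.7 and 81.2 CPM in MDA-MB-231. APBA2, STAC, SNX7, ABRACL and IGFBPL1 had no count in the libraries labelled HCC1937 and means of 65.1 to 91.7 CPM in MDA-MB-231. FABP5, a fatty acid binding protein, showed the same pattern at 88.3 CPM in mean in MDA-MB-231, but it has near-identical pseudogenes and its count is uncertain. For each of the genes named here by size, all 9 libraries of one line lay apart from all 9 of the other, which held for 45.8% of the tested features.

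Among genes active in both lines, those with the largest differences in favour of the libraries labelled HCC1937 included CPS1 and ASS1, which both serve the urea cycle. CPS1, the carbamoyl phosphate synthetase of the urea cycle, had 1238, 1329.7 and 1264 CPM in the libraries labelled HCC1937, against 7.48, 6.39 and 10.9 CPM in MDA-MB-231 (log2 fold change 7.27 ± 0.18, adjusted p = 2.55e-12 by edgeR). ASS1, argininosuccinate synthase, which makes the precursor of arginine, had 1138, 1111 and 1138 CPM in the libraries labelled HCC1937, against 21.7, 25.1 and 19.5 CPM in MDA-MB-231 (log2 fold change 5.67 ± 0.11, adjusted p = 5.54e-13 by edgeR). Both enzymes were measured in MDA-MB-231 at a small fraction of these levels. L1CAM, a neural adhesion molecule, had 649, 604 and 627 CPM in the libraries labelled HCC1937, against 8.67, 9.46 and 6.81 CPM in MDA-MB-231. SEMA3B, a secreted semaphorin, had 291, 283 and 312 CPM in the libraries labelled HCC1937, against 4.96, 6.95 and 5.06 CPM in MDA-MB-231. The matrix protein FBLN1, the actin-binding TPM2, the calcium-binding S100A4 and the complement regulator subunit C4BPB had log2 fold changes of 5.65, 5.23, 5.46 and 4.76. SLC7A5, the large amino acid transporter, had 6220.0, 5989 and 6182 CPM in the libraries labelled HCC1937, against 563, 687 and 502 CPM in MDA-MB-231 (log2 fold change 3.39 ± 0.11, adjusted p = 1.77e-11 by edgeR). HPD, the dioxygenase of tyrosine breakdown, was not active in both lines and is named whatever its result. It had 542, 522 and 548 CPM in the libraries labelled HCC1937, against 2, 1 and 4 counts in MDA-MB-231.

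Genes active in both but far lower in the libraries labelled HCC1937 were FOSL1, NT5E, PHLDA1, STK11, DNMBP, AXL, HK1 and HBEGF. FOSL1, an AP-1 subunit, had 9.44, 10.9 and 10.8 CPM in the libraries labelled HCC1937, against 601, 688 and 561 CPM in MDA-MB-231 (log2 fold change -5.89 ± 0.12, adjusted p = 5.63e-13 by edgeR). NT5E, the surface nucleotidase CD73, had 6.72, 6.41 and 6.91 CPM in the libraries labelled HCC1937, against 382, 273 and 411 CPM in MDA-MB-231 (log2 fold change -5.73 ± 0.16, adjusted p = 6.97e-12 by edgeR). STK11, the kinase LKB1 that activates AMPK, had 6.69, 7.40 and 6.21 CPM in the libraries labelled HCC1937, against 318, 384 and 296 CPM in MDA-MB-231 (log2 fold change -5.62 ± 0.13, adjusted p = 2.09e-12 by edgeR). Each of these 3 was lower by more than 4-fold in every library labelled HCC1937 than in any of MDA-MB-231. DNMBP, an exchange factor for the GTPase Cdc42, had 9.72, 13.02 and 10.8 CPM in the libraries labelled HCC1937, against 392, 392 and 417 CPM in MDA-MB-231. HK1, a hexokinase, had 16.7, 19.3 and 17.7 CPM in the libraries labelled HCC1937, against 531, 607 and 473 CPM in MDA-MB-231, and its log2 fold change of -4.91 stood at -4.35 without the GC trend. FOSL1, PHLDA1, AXL and HBEGF belong to the lists on ERK and YAP-TEAD described next.

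Receptors that feed the ERK cascade were more often called lower than higher in the libraries labelled HCC1937. Of 22 genes listed, 17 had counts enough to be tested, and of these 4 were called higher and 11 lower in the libraries labelled HCC1937, 2 higher and 6 lower by 4-fold or more, where 18.7% and 12.5% of all features were. This depended on the GC correction: without the GC trend 6 were called higher and 8 lower, and the median log2 fold change was -0.09 instead of -0.59. EGFR had 49.6, 50.3 and 51.9 CPM in the libraries labelled HCC1937, against 211, 176 and 228 CPM in MDA-MB-231 (log2 fold change -2.02 ± 0.10, adjusted p = 1.72e-09 by edgeR). EPHA2, an ephrin receptor, had 52.9, 52.1 and 50.8 CPM in the libraries labelled HCC1937, against 926, 1133 and 841 CPM in MDA-MB-231 (log2 fold change -4.22 ± 0.11, adjusted p = 6.09e-12 by edgeR). MERTK, a receptor for apoptotic cells of the same family as AXL, had 0.0923, 0.215 and 0.132 CPM in the libraries labelled HCC1937, against 14.5, 10.2 and 13.2 CPM in MDA-MB-231. All 3 were lower in each library labelled HCC1937 than in any of MDA-MB-231, as were 38.2% of tested features. MET, the receptor of hepatocyte growth factor, was higher, with 156, 168 and 154 CPM in the libraries labelled HCC1937, against 61.5, 40.7 and 65.9 CPM in MDA-MB-231 (log2 fold change 1.51 ± 0.15, adjusted p = 8.21e-07 by edgeR). DDR2, a collagen receptor, had 70.1, 75.6 and 74.6 CPM in the libraries labelled HCC1937, against 0.570, 0.246 and 0.206 CPM in MDA-MB-231. FGFR2, a fibroblast growth factor receptor, had 3.53, 3.09 and 2.82 CPM in the libraries labelled HCC1937, against 0 counts in every MDA-MB-231 vehicle library, at least 127-fold higher. KDR, a VEGF receptor, had no count in the libraries labelled HCC1937 and 0.875 CPM in mean in MDA-MB-231. ERBB2 had 73.2, 66.9 and 76.8 CPM in the libraries labelled HCC1937, against 84.9, 99.97 and 78.6 CPM in MDA-MB-231, a log2 fold change of -0.28 that became 0.22 without the GC trend, so its direction depends on that correction.

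The ligands of the EGF receptor family were lower in the libraries labelled HCC1937, except for EGF. Of 8 genes listed, 6 had counts enough to be tested, and of these 1 was called higher and 5 lower in the libraries labelled HCC1937, 0 higher and 5 lower by 4-fold or more. The median log2 fold change of the tested members was -5.57, or -5.36 without the GC trend. HBEGF, heparin-binding EGF-like growth factor, had 6.32, 8.15 and 6.10 CPM in the libraries labelled HCC1937, against 160.5, 163 and 158 CPM in MDA-MB-231 (log2 fold change -4.55 ± 0.13, adjusted p = 8.29e-12 by edgeR). NRG1, the neuregulin that binds ERBB3 and ERBB4, had 0.877, 0.837 and 0.484 CPM in the libraries labelled HCC1937, against 70.5, 65.7 and 78.0 CPM in MDA-MB-231 (log2 fold change -6.603 ± 0.20, adjusted p = 1.21e-11 by edgeR). EREG, epiregulin, had 0 counts in the libraries labelled HCC1937, against 22.3, 17.1 and 28.0 CPM in MDA-MB-231, at least 1009-fold lower. These 3 ligands were all but lost from the libraries labelled HCC1937 or at a small fraction of their level in MDA-MB-231. AREG, amphiregulin, had 0, 4 and 0 counts in the libraries labelled HCC1937, against 197, 205 and 198 counts in MDA-MB-231. TGFA, transforming growth factor alpha, had 3.12, 3.39 and 4.12 CPM in the libraries labelled HCC1937, against 20.02, 16.4 and 17.4 CPM in MDA-MB-231 (log2 fold change -2.34 ± 0.17, adjusted p = 3.28e-08 by edgeR). For the 5 ligands called lower, all 9 libraries labelled HCC1937 lay below all 9 of MDA-MB-231, as for 23.8% of tested features, or 25.6% without the AMD3100 library that stood apart. EGF itself had means of 1.78 CPM in the libraries labelled HCC1937 and 0.837 CPM in MDA-MB-231, and BTC and EPGN had too few counts to be tested.

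Known output genes of ERK were lower in the libraries labelled HCC1937 almost throughout. Of 19 genes listed and tested, 1 was called higher and 18 lower in the libraries labelled HCC1937, 0 higher and 13 lower by 4-fold or more. The median log2 fold change of the tested members was -2.30, or -2.45 without the GC trend. SPRY4, a Sprouty inhibitor of receptor signalling, had 0.692, 0.815 and 0.352 CPM in the libraries labelled HCC1937, against 295, 328 and 297 CPM in MDA-MB-231 (log2 fold change -8.94 ± 0.19, adjusted p = 9.21e-13 by edgeR). DUSP6, the cytoplasmic ERK phosphatase, had 1.82, 1.87 and 1.56 CPM in the libraries labelled HCC1937, against 98.7, 84.7 and 105 CPM in MDA-MB-231 (log2 fold change -5.77 ± 0.15, adjusted p = 3.64e-12 by edgeR). Its nuclear relatives DUSP4 and DUSP5 had log2 fold changes of -4.12 and -3.49; these 3 phosphatases are named for their role, after their values were seen. These feedback inhibitors were lower in the libraries labelled HCC1937, whereas DUSP2, an ERK phosphatase outside the list, was far higher in them, as given above. PHLDA1, an early target of ERK, had 8.68, 8.54 and 8.03 CPM in the libraries labelled HCC1937, against 434, 403 and 422 CPM in MDA-MB-231 (log2 fold change -5.64 ± 0.10, adjusted p = 2.62e-13 by edgeR). CCND1, which encodes cyclin D1, had 79.2, 90.9 and 81.5 CPM in the libraries labelled HCC1937, against 604, 599 and 669 CPM in MDA-MB-231 (log2 fold change -2.90 ± 0.09, adjusted p = 1.77e-11 by edgeR). ETV1, an ETS factor, had 1 count in the libraries labelled HCC1937 and 31.2, 22.7 and 28.9 CPM in MDA-MB-231, a ratio of 3735-fold (95% counting interval 670.4 to 147532) in favour of MDA-MB-231. EPHA4, an ephrin receptor, had 0, 0 and 2 counts in the libraries labelled HCC1937 and 112, 94 and 134 counts in MDA-MB-231. The single member called higher was MYC, with 414, 422 and 408 CPM in the libraries labelled HCC1937, against 150.2, 163 and 161 CPM in MDA-MB-231 (log2 fold change 1.39 ± 0.08, adjusted p = 3.02e-09 by edgeR). In 10 of the 19 genes all 9 libraries labelled HCC1937 lay below all 9 of MDA-MB-231, with or without the AMD3100 library that stood apart, where 23.8% and, without it, 25.6% of tested features did so. The treated MDA-MB-231 cultures had received bortezomib and those labelled HCC1937 had not, so treatment differs between the lines there.

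**Figure D3:**
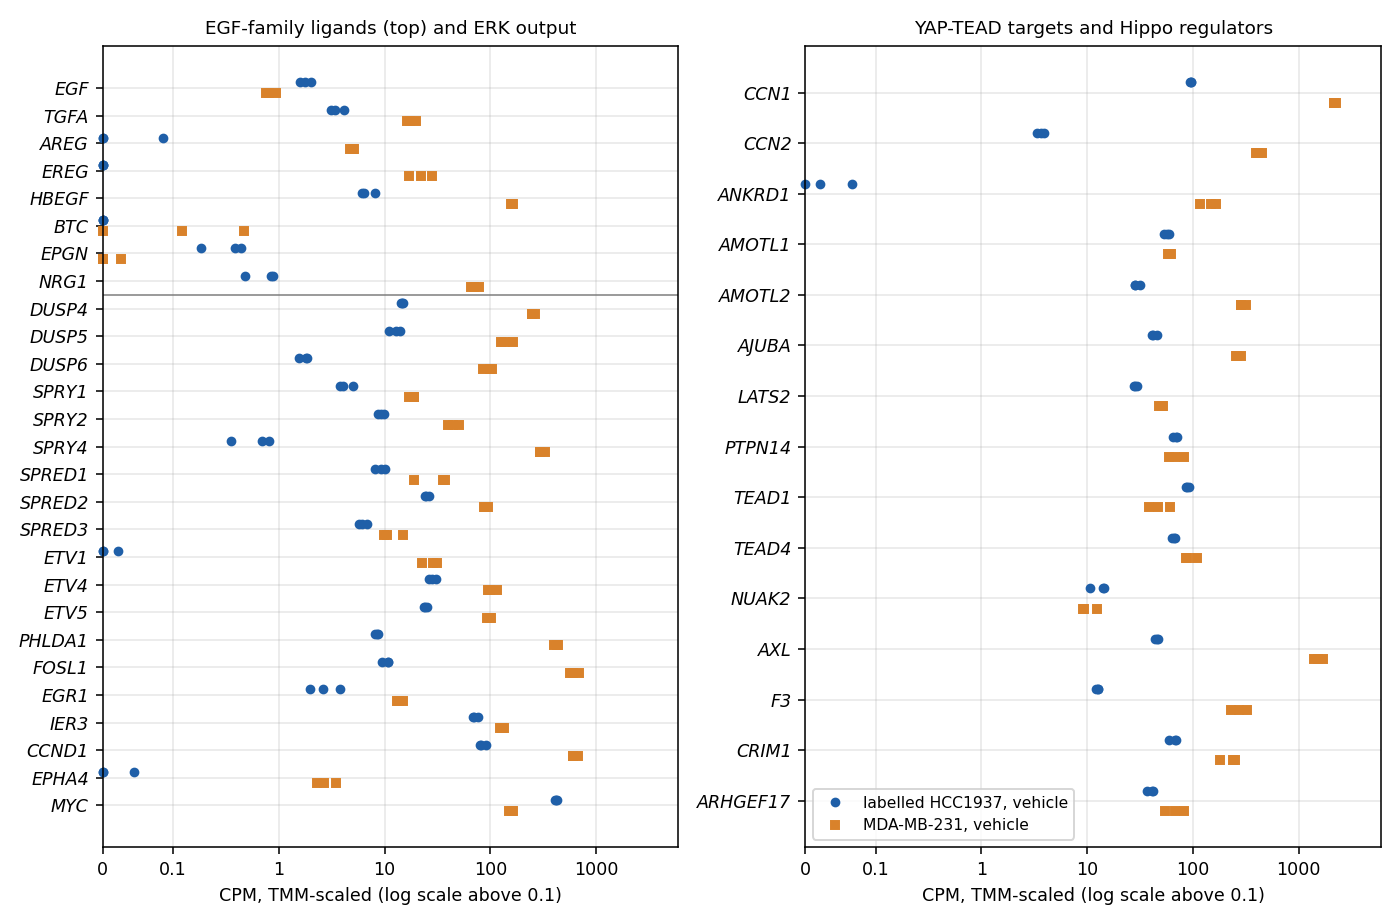
CPM in each vehicle library, logarithmic above 0.1, of the EGF-family ligands and ERK output genes (left, above and below the line) and of YAP-TEAD targets and Hippo regulators (right); circles are the libraries labelled HCC1937 and squares MDA-MB-231. HBEGF, NRG1, EREG, the ERK feedback genes other than MYC, and CCN1, CCN2, ANKRD1 and AXL lay at lower values in the libraries labelled HCC1937.

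Several targets of YAP and TEAD were lower in the libraries labelled HCC1937, while TEAD1 and TEAD4 differed by less than 2-fold. The list used here holds Hippo regulators as well as YAP-TEAD targets. Of 15 genes listed and tested, 1 was called higher and 11 lower in the libraries labelled HCC1937, 0 higher and 7 lower by 4-fold or more. The median log2 fold change of the tested members was -1.78, or -1.66 without the GC trend. CCN1, a secreted matricellular protein, had 96.5, 95.3 and 93.4 CPM in the libraries labelled HCC1937, against 2143, 2265 and 2164 CPM in MDA-MB-231 (log2 fold change -4.53 ± 0.08, adjusted p = 2.48e-13 by edgeR). CCN2, or connective tissue growth factor, had 3.35, 3.88 and 3.65 CPM in the libraries labelled HCC1937, against 397, 414 and 448 CPM in MDA-MB-231 (log2 fold change -6.85 ± 0.11, adjusted p = 2.41e-13 by edgeR). ANKRD1, an ankyrin repeat protein, had 0, 1 and 3 counts in the libraries labelled HCC1937, against 6209, 4716 and 6434 in MDA-MB-231. The 2 CCN genes and ANKRD1 are widely used readouts of YAP, and all 3 were lower. AXL, a receptor tyrosine kinase, had 45.5, 43.4 and 47.1 CPM in the libraries labelled HCC1937, against 1503, 1696 and 1394 CPM in MDA-MB-231 (log2 fold change -5.08 ± 0.10, adjusted p = 5.57e-13 by edgeR). AMOTL2, an angiomotin that binds YAP, had 28.0, 31.3 and 28.0 CPM in the libraries labelled HCC1937, against 286, 315 and 283 CPM in MDA-MB-231 (log2 fold change -3.34 ± 0.10, adjusted p = 8.98e-12 by edgeR). For these 5 genes no library labelled HCC1937, treated or not, reached any MDA-MB-231 library, as for 23.8% of tested features, or 25.6% without the AMD3100 library that stood apart. TEAD1, a DNA-binding partner of YAP, was higher at a mean of 88.1 CPM in the libraries labelled HCC1937, against 48.6 CPM in MDA-MB-231. TEAD4, a relative, was lower at 65.2 CPM in the libraries labelled HCC1937, against 94.1 CPM in MDA-MB-231.

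The promoters of 3 of these targets are shown because they hold the letters that TEAD factors bind, GGAATG on either strand (CATTCC on the other), in the 250 bases before the start site (RefSeq, GRCh38.p14, each on the minus strand, 5′ to 3′, the last base lying next to the start). The capitals mark each match.
CCN2: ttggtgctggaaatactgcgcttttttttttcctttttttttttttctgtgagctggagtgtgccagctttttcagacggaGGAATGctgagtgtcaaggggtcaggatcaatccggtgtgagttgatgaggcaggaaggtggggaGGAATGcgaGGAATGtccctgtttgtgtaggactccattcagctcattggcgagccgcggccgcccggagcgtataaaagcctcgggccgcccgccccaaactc
ANKRD1: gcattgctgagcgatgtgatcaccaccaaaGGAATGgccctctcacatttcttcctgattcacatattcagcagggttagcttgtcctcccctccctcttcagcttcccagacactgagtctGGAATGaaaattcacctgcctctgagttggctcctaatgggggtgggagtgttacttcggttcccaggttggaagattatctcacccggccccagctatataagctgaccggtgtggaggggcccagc
AMOTL2: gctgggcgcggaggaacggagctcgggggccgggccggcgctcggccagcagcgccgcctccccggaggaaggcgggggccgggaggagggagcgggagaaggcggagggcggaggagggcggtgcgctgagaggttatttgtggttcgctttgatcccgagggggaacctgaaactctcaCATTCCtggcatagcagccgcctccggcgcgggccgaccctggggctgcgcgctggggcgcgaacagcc

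The CCN2 stretch is chr6:131951373-131951622, with matches beginning 169, 104 and 95 bases before the start, the ANKRD1 stretch is chr10:90921088-90921337, with matches at 220 and 128 bases, and the AMOTL2 stretch, from the second of its listed starts, is chr3:134374448-134374697, with 1 match at 69 bases. In windows from 250 bases before to 50 after a start, the letters occurred for 8 of the 10 list members with a RefSeq window (AJUBA, AMOTL2, ANKRD1, AXL, CCN2, LATS2, NUAK2 and PTPN14) and for 16.7% of all 27305 genes with one. The list was drawn up from known YAP-TEAD targets and Hippo regulators. The letters were searched after the expression values were seen, so the matches are a description and not evidence of binding in these cells. LATS2, NUAK2 and PTPN14, which hold the letters too, had log2 fold changes of -0.82, 0.34 and -0.03, the last 2 not called.

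Genes of epithelial identity were split between the lines, and neither held the full set. Of 26 genes listed, 21 had counts enough to be tested, and of these 9 were called higher and 10 lower in the libraries labelled HCC1937, 6 higher and 7 lower by 4-fold or more. A split is also seen over all tested features, 42.2% higher and 37.0% lower, and 18.7% and 12.5% by 4-fold or more. DSP, the desmosome protein desmoplakin, was among the members higher in the libraries labelled HCC1937 and had 245, 262 and 257 CPM in the libraries labelled HCC1937, against 51.4, 37.4 and 49.4 CPM in MDA-MB-231 (log2 fold change 2.47 ± 0.12, adjusted p = 8.10e-10 by edgeR). JUP, plakoglobin, another desmosome protein, had 326, 307 and 319 CPM in the libraries labelled HCC1937, against 73.5, 89.5 and 65.7 CPM in MDA-MB-231 (log2 fold change 2.06 ± 0.11, adjusted p = 2.32e-09 by edgeR). Some other genes of junctions were lower there, as was EPCAM. CLDN1, a claudin of tight junctions, had 1, 0 and 0 counts in the libraries labelled HCC1937, against 213, 193 and 244 in MDA-MB-231. CLDN3 had a mean of 0.0517 CPM in the libraries labelled HCC1937, against 4.09 CPM in MDA-MB-231. EVPL, envoplakin, a plakin of stratified epithelium, had 60.3, 52.8 and 62.6 CPM in the libraries labelled HCC1937, against 158, 199 and 146 CPM in MDA-MB-231 (log2 fold change -1.51 ± 0.12, adjusted p = 1.12e-07 by edgeR). Of 17 of these genes with a RefSeq promoter window, 10 hold the E-box letters CACCTG or CAGGTG, which ZEB and SNAI repressors bind, against 24.1% of all genes; they include DSP and JUP, which were higher, and OCLN, which was lower in the libraries labelled HCC1937.

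Regulators of epithelial genes were higher in the libraries labelled HCC1937, though many had too few counts to be tested. Of 15 genes listed, 7 had counts enough to be tested, and of these 6 were called higher and 1 lower in the libraries labelled HCC1937, 4 higher and 1 lower by 4-fold or more. TFAP2A, the AP-2 alpha factor, had 200.1, 234 and 218 CPM in the libraries labelled HCC1937, against 0.807, 0.811 and 0.826 CPM in MDA-MB-231 (log2 fold change 8.06 ± 0.13, adjusted p = 2.41e-13 by edgeR). ELF3, an epithelial ETS factor, had 37.9, 39.1 and 39.9 CPM in the libraries labelled HCC1937, against 0.190, 0.270 and 0.310 CPM in MDA-MB-231 (log2 fold change 7.24 ± 0.19, adjusted p = 5.58e-12 by edgeR). ESRP2, a splicing regulator of epithelial isoforms, had 60.4, 60.3 and 62.6 CPM in the libraries labelled HCC1937, against 2.75, 2.21 and 1.34 CPM in MDA-MB-231 (log2 fold change 4.85 ± 0.20, adjusted p = 2.53e-10 by edgeR). These 3 regulators were near 1 CPM or below in MDA-MB-231, apart from ESRP2 at slightly more. GRHL1, a grainyhead factor, had 6.90, 8.52 and 7.61 CPM in the libraries labelled HCC1937, against 0.665, 0.663 and 0.594 CPM in MDA-MB-231. Its relative GRHL2 and TP63, both factors of mammary epithelium and named here after their values were seen, were at 0.0601 and 0.0297 CPM in mean in the libraries labelled HCC1937 and at 0 and 0.0317 CPM in MDA-MB-231. Epithelial surface proteins were mixed. DDR1, a collagen receptor, had 232, 220.3 and 226 CPM in the libraries labelled HCC1937, against 30.4, 38.3 and 26.6 CPM in MDA-MB-231 (log2 fold change 2.83 ± 0.13, adjusted p = 3.84e-10 by edgeR). MAL2, of apical transport, had 44.7, 48.6 and 44.4 CPM in the libraries labelled HCC1937, against 0 counts in every MDA-MB-231 vehicle library, at least 1861-fold higher. SPINT2, a protease inhibitor, had 2.35, 2.08 and 2.33 CPM in the libraries labelled HCC1937, against 174, 198 and 162 CPM in MDA-MB-231 (log2 fold change -6.30 ± 0.13, adjusted p = 8.91e-13 by edgeR). The first 2 were higher and SPINT2 far lower in the libraries labelled HCC1937. KRT17, a keratin of stratified epithelium, had 4.15, 5.08 and 3.92 CPM in the libraries labelled HCC1937, against 0, 0.0737 and 0.129 CPM in MDA-MB-231. KRT81, a hair keratin, ran the other way with 1.68, 1.20 and 1.39 CPM in the libraries labelled HCC1937, against 56.5, 65.8 and 56.5 CPM in MDA-MB-231. KRT7, of simple epithelium, had 393, 360.3 and 384 CPM in the libraries labelled HCC1937, against 681, 757 and 634 CPM in MDA-MB-231 (log2 fold change -0.87 ± 0.08, adjusted p = 7.06e-07 by edgeR).

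Transcription factors of the epithelial-mesenchymal transition did not move as a group. Of 14 genes listed, 12 had counts enough to be tested, and of these 7 were called higher and 4 lower in the libraries labelled HCC1937, 5 higher and 2 lower by 4-fold or more. The shares over all tested features were 42.2% and 37.0%, and 18.7% and 12.5% by 4-fold or more. TBX3, a T-box repressor, had 41.1, 42.3 and 43.8 CPM in the libraries labelled HCC1937, against 0.0950, 0.0491 and 0 CPM in MDA-MB-231. FOXC1, a forkhead factor of basal-like tumours, had 104, 102 and 98.4 CPM in the libraries labelled HCC1937, against 21.04, 18.9 and 22.6 CPM in MDA-MB-231 (log2 fold change 2.28 ± 0.11, adjusted p = 5.99e-10 by edgeR). FOXC2 and TWIST2 had means of 15.97 and 11.9 CPM in the libraries labelled HCC1937, against 0.0480 CPM and no count in MDA-MB-231. These 4 factors were higher in the libraries labelled HCC1937, and the next 2 lower. FOXQ1, a forkhead factor, had 0 counts in the libraries labelled HCC1937, against 26.5, 31.1 and 24.4 CPM in MDA-MB-231, at least 1235-fold lower. ETS1, an ETS factor, had 11.4, 13.4 and 11.6 CPM in the libraries labelled HCC1937, against 105, 83.7 and 112 CPM in MDA-MB-231 (log2 fold change -3.05 ± 0.14, adjusted p = 4.03e-10 by edgeR). ZEB2 had means of 2.18 CPM in the libraries labelled HCC1937 and 3.65 CPM in MDA-MB-231 (log2 fold change -0.74).

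Cytoskeletal and membrane proteins of mesenchymal cells were mostly lower in the libraries labelled HCC1937. Of 20 genes listed, 19 had counts enough to be tested, and of these 5 were called higher and 13 lower in the libraries labelled HCC1937, 4 higher and 6 lower by 4-fold or more, with a median of -1.59. CAVIN1, which shapes caveolae, had 140.03, 126 and 133 CPM in the libraries labelled HCC1937, against 1338, 1655 and 1201 CPM in MDA-MB-231 (log2 fold change -3.39 ± 0.12, adjusted p = 3.60e-11 by edgeR). MSN, moesin, which ties membranes to actin, had 339, 349 and 348 CPM in the libraries labelled HCC1937, against 1243, 1321 and 1136 CPM in MDA-MB-231 (log2 fold change -1.84 ± 0.08, adjusted p = 2.72e-10 by edgeR). CDH11, or OB-cadherin, had 0, 0 and 0.132 CPM in the libraries labelled HCC1937, against 11.6, 8.08 and 10.9 CPM in MDA-MB-231. FSTL1, a follistatin-like secreted protein, had means of 0.360 CPM in the libraries labelled HCC1937 and 57.2 CPM in MDA-MB-231. The surface pair CD44 and CD24, used together to sort breast cancer cells, ran in opposite directions. CD44 had 116, 115 and 111 CPM in the libraries labelled HCC1937, against 369.8, 326 and 375 CPM in MDA-MB-231 (log2 fold change -1.65 ± 0.08, adjusted p = 1.56e-09 by edgeR). CD24 had 312, 325 and 317 CPM in the libraries labelled HCC1937, against 1.97, 2.60 and 2.50 CPM in MDA-MB-231 (log2 fold change 7.07 ± 0.13, adjusted p = 3.17e-13 by edgeR). Some members went the other way, with NNMT, nicotinamide N-methyltransferase, at 133, 138 and 138 CPM in the libraries labelled HCC1937, against 0.0950, 0.0983 and 0.0516 CPM in MDA-MB-231. TPM2, the most abundant member in the libraries labelled HCC1937, did so too. Its means were 449.9 CPM there and 11.99 CPM in MDA-MB-231.

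Matrix proteins were largely lower as well, while their integrin receptors were split. Of 32 genes listed, 23 had counts enough to be tested, and of these 8 were called higher and 15 lower in the libraries labelled HCC1937, 5 higher and 12 lower by 4-fold or more. COL6A2, a chain of collagen VI, had 0, 0 and 0.0880 CPM in the libraries labelled HCC1937, against 36.7, 46.0 and 31.2 CPM in MDA-MB-231. COL13A1, a transmembrane collagen, had 0.785, 0.837 and 0.726 CPM in the libraries labelled HCC1937, against 229, 270.4 and 239.9 CPM in MDA-MB-231. TGFBI, a TGF-beta-induced matrix protein, had 18.2, 21.5 and 17.3 CPM in the libraries labelled HCC1937, against 209, 231.2 and 212 CPM in MDA-MB-231 (log2 fold change -3.52 ± 0.11, adjusted p = 1.68e-11 by edgeR). All 3 were lower in each library labelled HCC1937 than in any of MDA-MB-231. Chains of the laminin of epithelial basement membrane did not move together. LAMB3 had 62.2, 61.6 and 62.1 CPM in the libraries labelled HCC1937, against 883, 1067 and 785 CPM in MDA-MB-231 (log2 fold change -3.88 ± 0.11, adjusted p = 1.09e-11 by edgeR). LAMA3 had 24.2, 23.1 and 19.8 CPM in the libraries labelled HCC1937, against 0.261, 0.295 and 0.284 CPM in MDA-MB-231 (log2 fold change 6.31 ± 0.21, adjusted p = 2.76e-11 by edgeR). The alpha chain was therefore higher and the beta chain lower in the libraries labelled HCC1937. Integrins, the receptors of such proteins, were called lower in 6 and higher in 4 of 11 tested cases, 3 lower and 2 higher by 4-fold or more. Over all tested features 37.0% were called lower and 42.2% higher, 12.5% and 18.7% by 4-fold or more. ITGA3, a laminin-binding alpha subunit, had 114, 114 and 117 CPM in the libraries labelled HCC1937, against 824, 962 and 696 CPM in MDA-MB-231 (log2 fold change -2.85 ± 0.11, adjusted p = 1.26e-10 by edgeR). ITGB4, of hemidesmosomes, had 1.87, 1.48 and 1.43 CPM in the libraries labelled HCC1937, against 64.4, 90.2 and 58.3 CPM in MDA-MB-231 (log2 fold change -5.48 ± 0.20, adjusted p = 8.62e-11 by edgeR). ITGB8, which activates latent TGF-beta, was higher, with 5.72, 8.41 and 5.52 CPM in the libraries labelled HCC1937, against 0.166, 0.0983 and 0.155 CPM in MDA-MB-231 (log2 fold change 5.52 ± 0.32, adjusted p = 5.14e-09 by edgeR).

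Matrix proteases and their inhibitors differed in both directions. Of 24 genes listed, 18 had counts enough to be tested, and of these 7 were called higher and 11 lower in the libraries labelled HCC1937, 4 higher and 9 lower by 4-fold or more. Among all tested features 42.2% were called higher and 37.0% lower, 18.7% and 12.5% by 4-fold or more. PLAU, urokinase, had 0.762, 0.837 and 0.484 CPM in the libraries labelled HCC1937, against 279, 314 and 268 CPM in MDA-MB-231 (log2 fold change -8.69 ± 0.17, adjusted p = 5.31e-13 by edgeR). MMP14, a membrane-bound metalloprotease, had 0.623, 0.408 and 0.726 CPM in the libraries labelled HCC1937, against 157, 176 and 140.4 CPM in MDA-MB-231 (log2 fold change -8.07 ± 0.18, adjusted p = 1.55e-12 by edgeR). Both were below 1 CPM in the libraries labelled HCC1937 and over 100 CPM in MDA-MB-231. LOXL2, which crosslinks collagen, had 51.7, 49.9 and 51.7 CPM in the libraries labelled HCC1937, against 229, 268 and 201 CPM in MDA-MB-231 (log2 fold change -2.19 ± 0.11, adjusted p = 1.13e-09 by edgeR). SERPINB5, or maspin, ran the other way with 21.5, 23.5 and 21.5 CPM in the libraries labelled HCC1937, against 0 counts in every MDA-MB-231 vehicle library, at least 900.3-fold higher. TIMP2, a metalloprotease inhibitor, had 364, 383 and 384 CPM in the libraries labelled HCC1937, against 215, 229 and 197 CPM in MDA-MB-231 (log2 fold change 0.82 ± 0.08, adjusted p = 9.87e-07 by edgeR).

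HOX genes, which record positional identity, were higher in the libraries labelled HCC1937 in most of the 4 clusters, and for many the MDA-MB-231 libraries had no count. Of 7 tested HOXA genes all 7 were called higher by 4-fold or more, and 6 of them had no count in MDA-MB-231. HOXA11 had 13.1, 13.4 and 14.5 CPM in the libraries labelled HCC1937, against 0 counts in every MDA-MB-231 vehicle library, at least 554-fold higher. HOXA5 had 8.68, 10.3 and 8.69 CPM in the libraries labelled HCC1937, against 0 counts in every MDA-MB-231 vehicle library, at least 374-fold higher. HOXA9 and HOXA10, between them on the chromosome, had means of 7.67 and 5.43 CPM in the libraries labelled HCC1937 and no count in MDA-MB-231 (the stretch is chr7:27141052-27185223). HOXD split by position. HOXD8, HOXD9, HOXD10 and HOXD11, neighbours on chr2:176104216-176132695, had no count in MDA-MB-231. HOXD9 had 34.0, 31.8 and 34.2 CPM in the libraries labelled HCC1937, against 0 counts in every MDA-MB-231 vehicle library, at least 1349-fold higher. HOXD4 was lower instead, with 1.13, 2.08 and 1.78 CPM in the libraries labelled HCC1937, against 8.52, 9.31 and 9.89 CPM in MDA-MB-231 (log2 fold change -2.47 ± 0.22, adjusted p = 3.40e-07 by edgeR). HOXD3, next to it, had a mean of 0.259 CPM in the libraries labelled HCC1937, against 7.66 CPM in MDA-MB-231. In HOXC, 7 of 8 tested genes were called higher. HOXC10 had 61.0, 63.7 and 62.9 CPM in the libraries labelled HCC1937, against 2.75, 2.01 and 2.17 CPM in MDA-MB-231 (log2 fold change 4.75 ± 0.15, adjusted p = 2.03e-11 by edgeR). HOXC11 had 17.01, 17.1 and 16.8 CPM in the libraries labelled HCC1937 and no count in MDA-MB-231. In HOXB, 5 of 8 were called higher and 1 lower. HOXB7 had 23.4, 23.7 and 22.5 CPM in the libraries labelled HCC1937, against 0.665, 0.835 and 1.73 CPM in MDA-MB-231 (log2 fold change 4.44 ± 0.26, adjusted p = 6.31e-09 by edgeR). HOXB13, the most 5′ of the cluster, had 9.99, 8.67 and 7.83 CPM in the libraries labelled HCC1937, against 0 counts in every MDA-MB-231 vehicle library, at least 357-fold higher. HOXB9, the one called lower, had 1.80, 2.08 and 3.35 CPM in the libraries labelled HCC1937, against 28.5, 28.8 and 28.1 CPM in MDA-MB-231 (log2 fold change -3.56 ± 0.21, adjusted p = 4.74e-09 by edgeR).

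Cancer-testis antigens, genes normally limited to germ cells, differed by member. Of 22 genes listed, 13 had counts enough to be tested, and of these 8 were called higher and 5 lower in the libraries labelled HCC1937, 8 higher and 3 lower by 4-fold or more. The number called lower was 3 without the second or the third library labelled HCC1937, with upper-quartile factors and without the GC trend, when 10 were called higher. CTAG2, a relative of NY-ESO-1, had 473, 414 and 453 CPM in the libraries labelled HCC1937, against 0 counts in every MDA-MB-231 vehicle library, at least 18075-fold higher. PAGE1 had 254, 246 and 247 CPM in the libraries labelled HCC1937, against 0 counts in every MDA-MB-231 vehicle library, at least 10078-fold higher. PRAME, a repressor of retinoic acid signalling, had 35.9, 37.5 and 38.9 CPM in the libraries labelled HCC1937, against 0 counts in every MDA-MB-231 vehicle library, at least 1518-fold higher. GAGE2A had 162 CPM in mean in the libraries labelled HCC1937 and none in MDA-MB-231, within a family of near-identical copies whose split is uncertain. MAGEC1 was silent in the libraries labelled HCC1937 and had 86.1, 85.6 and 81.6 CPM in MDA-MB-231.

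The receptors of oestrogen and progesterone were near 0 in both lines, which are known as negative for them. ESR1, the oestrogen receptor, had 1.5, 1.12 and 1.25 CPM in the libraries labelled HCC1937, against 0, 0 and 0.206 CPM in MDA-MB-231. PGR, the progesterone receptor, had no count in any of the 6 libraries. GATA3, a luminal factor, had 4.22, 4.03 and 5.15 CPM in the libraries labelled HCC1937, against 13.9, 13.1 and 13.96 CPM in MDA-MB-231 (log2 fold change -1.61 ± 0.16, adjusted p = 7.48e-07 by edgeR). Of mammary stem cell markers, ABCG2, a drug efflux pump, had 172, 187 and 175 CPM in the libraries labelled HCC1937, against 1.88, 2.06 and 2.48 CPM in MDA-MB-231 (log2 fold change 6.38 ± 0.13, adjusted p = 7.40e-13 by edgeR). SOX2, a pluripotency factor, had 10.5, 12.01 and 9.71 CPM in the libraries labelled HCC1937, against 0 counts in every MDA-MB-231 vehicle library, at least 436-fold higher. Both were thus higher in the libraries labelled HCC1937. MUC16, the mucin of the tumour marker CA-125, had 11.6, 10.1 and 9.24 CPM in the libraries labelled HCC1937, against 0 counts in every MDA-MB-231 vehicle library, at least 417-fold higher. SLPI, a secreted leukocyte protease inhibitor, had 39.3, 41.6 and 40.7 CPM in the libraries labelled HCC1937 and 1 count in all of MDA-MB-231, a ratio of 4932-fold (95% counting interval 885 to 194785). MUC5B, a gel-forming mucin, was lower, with 0.600, 0.429 and 0.330 CPM in the libraries labelled HCC1937, against 10.4, 19.0 and 9.32 CPM in MDA-MB-231.

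The targets of the drugs used in the series differed at baseline. CXCR4, the receptor blocked by AMD3100 (ENSG00000121966; chr2:136114349-136118165, minus strand), had 3332, 4193 and 3914 counts, or 76.9, 89.96 and 86.1 CPM, in the libraries labelled HCC1937 and 0 counts in all 3 MDA-MB-231 libraries, at least 3424-fold higher. ACKR3, the scavenger receptor of the same chemokine, had 11.7, 12.2 and 13.03 CPM in the libraries labelled HCC1937, against 0 counts in every MDA-MB-231 vehicle library, at least 500.2-fold higher. The ligand CXCL12 had no count in any of the 6 libraries. For both receptors all 9 libraries labelled HCC1937 were above all 9 of MDA-MB-231, as for 22.0% of tested features, or 27.8% without the AMD3100 library that stood apart.

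Genes of the constitutive proteasome, the target of bortezomib, were slightly lower in the libraries labelled HCC1937. Of 32 genes listed and tested, 5 were called higher and 20 lower in the libraries labelled HCC1937, 1 higher and 0 lower by 4-fold or more. The median log2 fold change of the tested members was -0.43, or -0.45 without the GC trend, and it kept its sign under each of the 3 scalings (-0.48 to -0.32). PSMB5, the catalytic subunit that bortezomib binds, had 183, 173 and 177 CPM in the libraries labelled HCC1937, against 355, 388 and 335 CPM in MDA-MB-231 (log2 fold change -1.02 ± 0.08, adjusted p = 1.21e-07 by edgeR). PSMD2, a base subunit of the regulatory particle, had 449.7, 425 and 433 CPM in the libraries labelled HCC1937, against 1414, 1601 and 1313 CPM in MDA-MB-231 (log2 fold change -1.73 ± 0.08, adjusted p = 9.60e-10 by edgeR). PSMD8 and ADRM1, of its lid and its ubiquitin receptors, had log2 fold changes of -1.64 and -1.69. The immunoproteasome, a form made for antigen processing, was uneven. PSMB8 had 0.577, 0.515 and 0.0880 CPM in the libraries labelled HCC1937, against 62.3, 76.4 and 58.3 CPM in MDA-MB-231 (log2 fold change -7.38 ± 0.32, adjusted p = 3.04e-10 by edgeR). PSMB9, encoded beside it, was higher, with 22.2, 17.6 and 19.3 CPM in the libraries labelled HCC1937, against 7.62, 9.36 and 7.74 CPM in MDA-MB-231 (log2 fold change 1.26 ± 0.15, adjusted p = 5.48e-06 by edgeR). PSME1 and PSME2, the activator subunits, had log2 fold changes of -0.83 and -0.93, or -0.29 and -0.34 without the GC trend.

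Copper genes were divided between the lines. Of 21 genes listed, 19 had counts enough to be tested, and of these 7 were called higher and 10 lower in the libraries labelled HCC1937, 3 higher and 5 lower by 4-fold or more. All tested features were divided too, with 42.2% called higher and 37.0% lower, and 18.7% and 12.5% by 4-fold or more. MT2A, a metallothionein, had 97.5, 89.3 and 97.3 CPM in the libraries labelled HCC1937, against 885, 819 and 767 CPM in MDA-MB-231 (log2 fold change -3.12 ± 0.09, adjusted p = 7.55e-12 by edgeR). MT1E, another, had 0, 0.0858 and 0.0440 CPM in the libraries labelled HCC1937, against 184, 178 and 177 CPM in MDA-MB-231. SLC31A1, the copper importer, differed little, with 69.8, 69.8 and 72.8 CPM in the libraries labelled HCC1937, against 55.4, 54.6 and 61.4 CPM in MDA-MB-231 (log2 fold change 0.31 ± 0.10, adjusted p = 0.00968 by edgeR). Among metalloreductases, which reduce copper and iron for import, members replaced each other. STEAP1 and STEAP2 had 0.0370 and 0 CPM in mean in the libraries labelled HCC1937, against 13.4 and 3.44 CPM in MDA-MB-231. STEAP4 had 4.89, 4.51 and 5.35 CPM in the libraries labelled HCC1937, against 0 counts in every MDA-MB-231 vehicle library, at least 199-fold higher. The exporters ATP7A and ATP7B, named for their role after their values were seen, had log2 fold changes of 2.25 and 2.13.

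Most genes of antigen presentation that differed were lower in the libraries labelled HCC1937. Of 15 genes listed and tested, 1 was called higher and 9 lower in the libraries labelled HCC1937, 0 higher and 2 lower by 4-fold or more, with a median log2 fold change of -0.32. Without the GC trend 5 were called higher and 9 lower, with a median of -0.55. HLA-B, a classical class I heavy chain, had 0.877, 1.24 and 1.12 CPM in the libraries labelled HCC1937, against 51.1, 70.1 and 48.5 CPM in MDA-MB-231 (log2 fold change -5.70 ± 0.20, adjusted p = 5.83e-11 by edgeR). HLA-E, which presents to natural killer cells, had 66.5, 60.9 and 63.4 CPM in the libraries labelled HCC1937, against 228, 263 and 209.6 CPM in MDA-MB-231 (log2 fold change -1.88 ± 0.10, adjusted p = 2.25e-09 by edgeR). How well each line's alleles match the reference sequence of these variable genes was not tested. B2M, the class I light chain, was not called, with 195, 190.4 and 185 CPM in the libraries labelled HCC1937, against 205, 161 and 202 CPM in MDA-MB-231 and a log2 fold change of 0.00, or -0.56 without the GC trend. Class II genes were near 0, HLA-DMA being the most abundant of the 2 tested at 4.18 CPM in mean in the libraries labelled HCC1937 and 0.577 CPM in MDA-MB-231. Ligands of immune checkpoint receptors were mixed, with 3 of 9 tested called higher and 5 lower, 2 higher and 3 lower by 4-fold or more. So were all tested features, with 42.2% called higher and 37.0% lower, and 18.7% and 12.5% by 4-fold or more. CD274, which encodes PD-L1, had 2, 2 and 0 counts in the libraries labelled HCC1937, against 586, 469 and 612 counts in MDA-MB-231. PVR, a ligand of the receptor TIGIT, had 73.1, 70.4 and 70.5 CPM in the libraries labelled HCC1937, against 248, 271 and 218 CPM in MDA-MB-231 (log2 fold change -1.79 ± 0.10, adjusted p = 2.32e-09 by edgeR).

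Cytokines were more often called lower than higher in the libraries labelled HCC1937. Of 25 genes listed, 16 had counts enough to be tested, and of these 6 were called higher and 10 lower in the libraries labelled HCC1937, 3 higher and 6 lower by 4-fold or more. Beside them, 42.2% of all tested features were called higher and 37.0% lower, 18.7% and 12.5% by 4-fold or more. Without the GC trend 6 cytokines were called higher and 8 lower, and the median log2 fold change was -0.88 instead of -1.26. CSF1, the macrophage growth factor, had 0, 0.172 and 0.110 CPM in the libraries labelled HCC1937, against 91.0, 111 and 87.8 CPM in MDA-MB-231 (log2 fold change -9.93 ± 0.30, adjusted p = 1.61e-11 by edgeR). IL11 had 0.923, 0.751 and 1.03 CPM in the libraries labelled HCC1937, against 121, 121 and 115 CPM in MDA-MB-231 (log2 fold change -7.04 ± 0.14, adjusted p = 7.40e-13 by edgeR). LIF, which like IL11 signals through gp130, had 14.7, 13.9 and 13.01 CPM in the libraries labelled HCC1937, against 114, 137 and 107 CPM in MDA-MB-231 (log2 fold change -3.10 ± 0.12, adjusted p = 1.32e-10 by edgeR). IL18 was higher, with 72.0, 67.2 and 72.7 CPM in the libraries labelled HCC1937, against 22.2, 18.8 and 22.3 CPM in MDA-MB-231 (log2 fold change 1.74 ± 0.11, adjusted p = 1.35e-08 by edgeR). Interferon-stimulated genes were split, as were all tested features by the shares just given. Of 24 genes listed, 22 had counts enough to be tested, and of these 7 were called higher and 11 lower in the libraries labelled HCC1937, 5 higher and 5 lower by 4-fold or more. The number lower by 4-fold was 3 with halved counts and without the GC trend. BST2, or tetherin, which holds virus particles at the membrane, had 367, 348 and 363 CPM in the libraries labelled HCC1937, against 0.878, 0.688 and 0.439 CPM in MDA-MB-231 (log2 fold change 9.05 ± 0.16, adjusted p = 3.53e-13 by edgeR). IFITM1, an antiviral membrane protein, had 9.90, 10.2 and 9.07 CPM in the libraries labelled HCC1937, against 0.190, 0.369 and 0.336 CPM in MDA-MB-231 (log2 fold change 5.02 ± 0.25, adjusted p = 1.10e-09 by edgeR). These 2 were higher, and the next 2 lower, in the libraries labelled HCC1937. IRF7, a factor that amplifies the response, had 0.0692, 0.172 and 0.374 CPM in the libraries labelled HCC1937, against 28.2, 33.0 and 24.96 CPM in MDA-MB-231 (log2 fold change -7.10 ± 0.31, adjusted p = 3.24e-10 by edgeR). ISG15, a ubiquitin-like modifier, had 30.8, 28.8 and 30.8 CPM in the libraries labelled HCC1937, against 136, 146 and 127 CPM in MDA-MB-231 (log2 fold change -2.18 ± 0.10, adjusted p = 4.27e-10 by edgeR).

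Genes of glucose use were lower in the libraries labelled HCC1937, and transcripts of the mitochondrial genome were higher. Of 29 genes listed and tested, 5 were called higher and 21 lower in the libraries labelled HCC1937, 4 higher and 7 lower by 4-fold or more, with a median log2 fold change of -0.91 that shrank to -0.46 without the GC trend, when 9 were called higher and 17 lower, against 44.3% and 37.0% of all features in that fit. ENO1, enolase, had 3025, 2880.3 and 3009 CPM in the libraries labelled HCC1937, against 5707, 6717 and 5516 CPM in MDA-MB-231 (log2 fold change -1.009 ± 0.08, adjusted p = 8.38e-08 by edgeR). PKM, pyruvate kinase, had 1966, 1945 and 2012 CPM in the libraries labelled HCC1937, against 4673, 5213 and 4192 CPM in MDA-MB-231 (log2 fold change -1.25 ± 0.08, adjusted p = 1.28e-08 by edgeR). SLC16A1, the lactate transporter MCT1, was nearly exclusive to the libraries labelled HCC1937, with 169.7, 183 and 169.8 CPM, against 2, 0 and 6 counts in MDA-MB-231. CA12, a membrane carbonic anhydrase, had 0, 2 and 0 counts in the libraries labelled HCC1937, against 833, 732 and 781 counts in MDA-MB-231. The last 2 genes thus ran in opposite directions within the list. All 13 mitochondrial coding transcripts were called higher in the libraries labelled HCC1937, with a median log2 fold change of 1.07. MT-CYB, cytochrome b, had 7786, 7989.8 and 7964 CPM in the libraries labelled HCC1937, against 1722, 1917 and 1594 CPM in MDA-MB-231 (log2 fold change 2.18 ± 0.08, adjusted p = 4.60e-11 by edgeR). MT-CO1, a cytochrome oxidase subunit, had 21612, 22057 and 22104 CPM in the libraries labelled HCC1937, against 12380.5, 13811 and 13099 CPM in MDA-MB-231 (log2 fold change 0.74 ± 0.06, adjusted p = 1.06e-07 by edgeR). The mitochondrial share of all counts, given above, moved with this list. With mitochondrial features left out, 7795 features were called higher and 6842 lower, 3461 and 2313 of them by 4-fold or more. The median log2 fold change of the glucose list was -0.91 in that fit too.

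Lists of division, DNA repair and translation held few differences of 4-fold. The list of mitosis and proliferation had more members lower than higher. Of 26 genes listed and tested, 5 were called higher and 15 lower in the libraries labelled HCC1937, 1 higher and 2 lower by 4-fold or more. The number called higher was 3 without any 1 of the libraries labelled HCC1937, without the second MDA-MB-231 library and without the GC trend, and 2 in the fits over 17 or 18 libraries. Replication genes were lower and a kinetochore gene higher among the largest. MCM2, a helicase subunit of replication, had 49.0, 43.6 and 47.8 CPM in the libraries labelled HCC1937, against 301, 333 and 246 CPM in MDA-MB-231 (log2 fold change -2.65 ± 0.12, adjusted p = 3.42e-10 by edgeR). RRM2, of ribonucleotide reductase, had 152, 162 and 156 CPM in the libraries labelled HCC1937, against 685, 634 and 716 CPM in MDA-MB-231 (log2 fold change -2.12 ± 0.08, adjusted p = 1.02e-10 by edgeR). CENPF, a kinetochore protein, had 243, 234 and 238 CPM in the libraries labelled HCC1937, against 29.2, 25.9 and 36.4 CPM in MDA-MB-231 (log2 fold change 2.97 ± 0.12, adjusted p = 1.82e-10 by edgeR). Among G1 regulators the kinase CDK4 had 78.6, 76.0 and 77.4 CPM in the libraries labelled HCC1937, against 237, 289 and 237 CPM in MDA-MB-231 (log2 fold change -1.72 ± 0.10, adjusted p = 3.87e-09 by edgeR). CDKN1C, the p57 inhibitor, had 34.8, 35.4 and 32.9 CPM in the libraries labelled HCC1937, against 7.43, 8.97 and 6.504 CPM in MDA-MB-231 (log2 fold change 2.17 ± 0.14, adjusted p = 1.91e-08 by edgeR). Homologous recombination genes were called higher in 10 and lower in 5 of 20 cases, or 7 and 9 without the GC trend, and the median log2 fold change was 0.33 in the first fit and -0.15 in the second. CHEK2, a checkpoint kinase, had 40.3, 42.4 and 40.1 CPM in the libraries labelled HCC1937, against 8.29, 8.33 and 9.89 CPM in MDA-MB-231 (log2 fold change 2.21 ± 0.13, adjusted p = 4.83e-09 by edgeR). ATR, which senses stalled replication, had 36.0, 38.9 and 35.8 CPM in the libraries labelled HCC1937, against 8.55, 4.96 and 7.87 CPM in MDA-MB-231 (log2 fold change 2.37 ± 0.18, adjusted p = 7.44e-08 by edgeR). Both kinases were higher in the libraries labelled HCC1937, in both fits.

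Single genes of cell death, of the PI3K pathway and of the antioxidant response differed by more. BCL2L1, which encodes the survival protein BCL-XL, had 42.4, 40.0 and 43.5 CPM in the libraries labelled HCC1937, against 338, 384 and 322 CPM in MDA-MB-231 (log2 fold change -3.05 ± 0.10, adjusted p = 2.01e-11 by edgeR). FAS, a death receptor, had 11.49, 12.8 and 11.6 CPM in the libraries labelled HCC1937, against 1.21, 0.786 and 1.549 CPM in MDA-MB-231 (log2 fold change 3.34 ± 0.22, adjusted p = 2.10e-08 by edgeR). In the PI3K pathway, INPP4B, a lipid phosphatase, had 0 counts in the libraries labelled HCC1937, against 9.14, 7.03 and 7.82 CPM in MDA-MB-231, at least 362-fold lower. AKT1, the central kinase, had 79.7, 74.0 and 77.6 CPM in the libraries labelled HCC1937, against 253, 313 and 243 CPM in MDA-MB-231 (log2 fold change -1.81 ± 0.10, adjusted p = 4.72e-09 by edgeR). Of 31 cytosolic ribosomal protein genes 4 were called higher and 23 lower, none by 4-fold, with a median log2 fold change of -0.48, or -0.19 without the GC trend. Of 21 tested targets of NRF2, the regulator of antioxidant genes, 12 were called higher and 7 lower, beside 42.2% and 37.0% of all tested features. All 9 libraries labelled HCC1937 lay above all 9 of MDA-MB-231 for 2 of these targets and below for 6. Over all tested features these shares were 22.0% and 23.8%. ABCC2, a pump for conjugates, had 99.0, 112 and 107 CPM in the libraries labelled HCC1937, against 1.64, 1.62 and 1.37 CPM in MDA-MB-231 (log2 fold change 6.10 ± 0.14, adjusted p = 1.47e-12 by edgeR). HMOX1, haem oxygenase, had 49.9, 47.3 and 45.1 CPM in the libraries labelled HCC1937, against 17.2, 17.4 and 16.7 CPM in MDA-MB-231 (log2 fold change 1.47 ± 0.11, adjusted p = 6.82e-08 by edgeR).

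Stress genes that are often read after drug treatment had unequal baselines. HSPA1A, an HSP70 gene with a near-identical copy that makes its count uncertain, had 525, 479 and 518 CPM in the libraries labelled HCC1937, against 34.0, 43.1 and 31.0 CPM in MDA-MB-231. GDF15, a stress cytokine, had 33.6, 30.1 and 33.4 CPM in the libraries labelled HCC1937, against 4.91, 6.07 and 4.39 CPM in MDA-MB-231 (log2 fold change 2.66 ± 0.15, adjusted p = 4.35e-09 by edgeR). CDKN1A, which encodes the p21 inhibitor, had 40.9, 43.4 and 44.0 CPM in the libraries labelled HCC1937, against 66.8, 77.5 and 61.8 CPM in MDA-MB-231 (log2 fold change -0.68 ± 0.11, adjusted p = 7.69e-05 by edgeR). TXNIP, which binds thioredoxin, had 24.9, 26.5 and 27.1 CPM in the libraries labelled HCC1937, against 70.1, 60.2 and 73.6 CPM in MDA-MB-231 (log2 fold change -1.38 ± 0.11, adjusted p = 1.37e-07 by edgeR). The first 2 were higher and the last 2 lower in the libraries labelled HCC1937 before any drug was given.

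**Figure D4:**
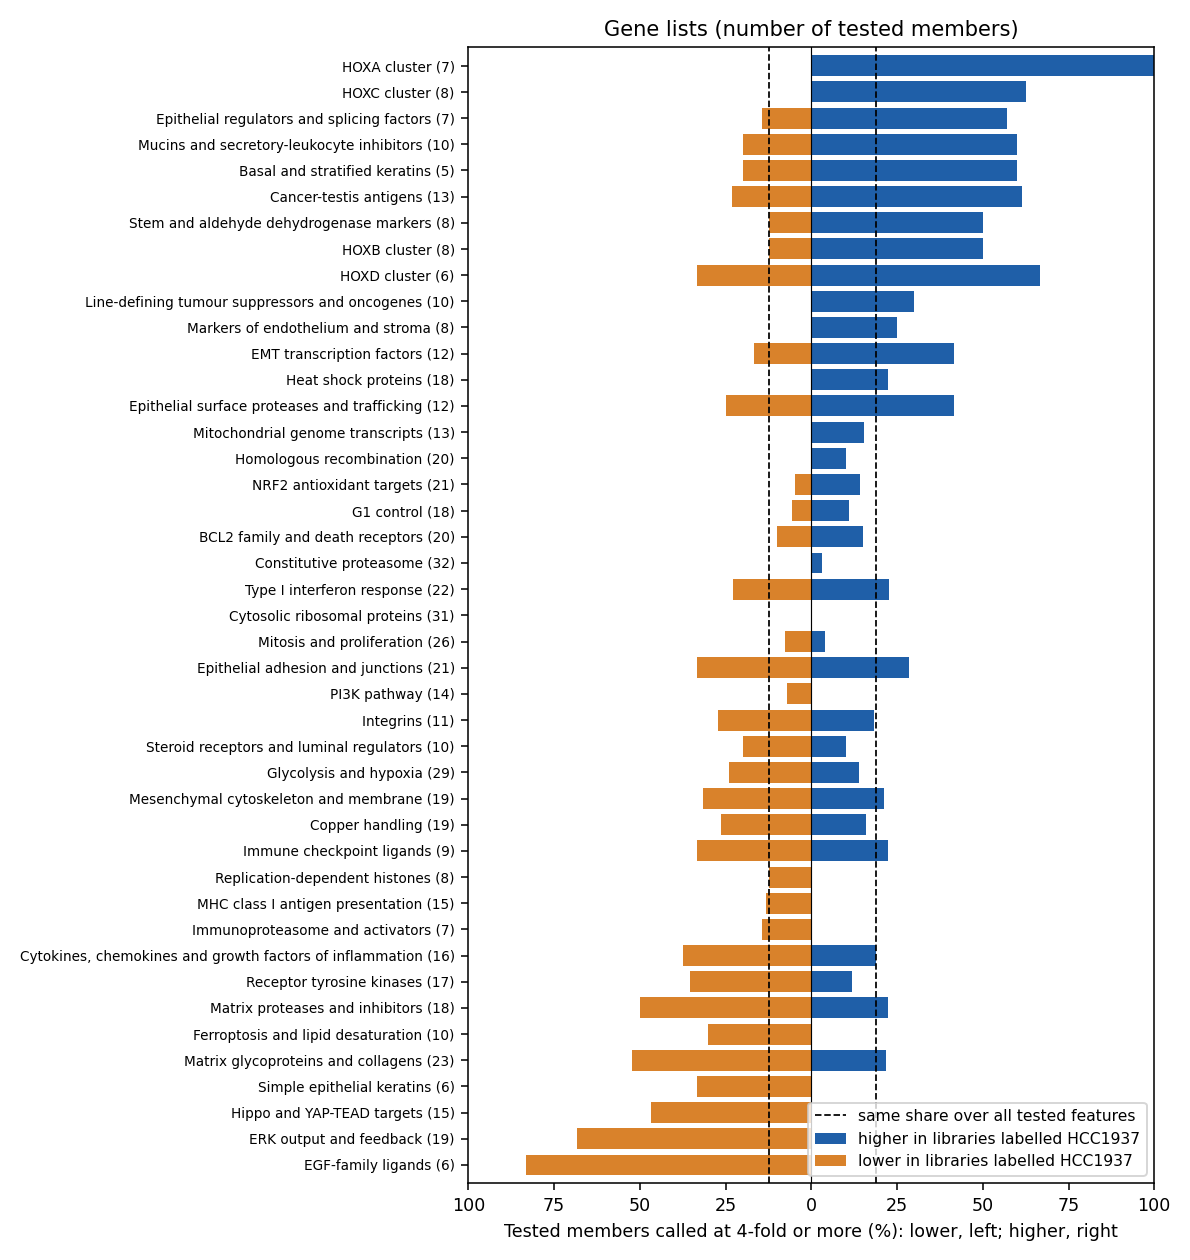
Share in % of the tested members of each gene list of at least 5 tested genes that were called at 4-fold or more lower (left) or higher (right) in the libraries labelled HCC1937; dashed lines mark the same shares over all tested features, 12.5% and 18.7%. HOXA genes lie at the higher end and EGF-family ligands, ERK output and the list of Hippo and YAP-TEAD targets at the lower end.

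The most abundant nuclear-encoded transcripts were, apart from SLC7A5 described above, housekeeping genes, and most of these were lower in the libraries labelled HCC1937. EEF1A1, which brings transfer RNA to the ribosome, had 6905, 7072 and 6938 CPM in the libraries labelled HCC1937, against 11910.0, 11899 and 13994 CPM in MDA-MB-231 (log2 fold change -0.85 ± 0.07, adjusted p = 1.70e-07 by edgeR). ACTB, cytoplasmic actin, had 4362, 4396 and 4447 CPM in the libraries labelled HCC1937, against 10557, 11408 and 9886 CPM in MDA-MB-231 (log2 fold change -1.27 ± 0.07, adjusted p = 1.87e-09 by edgeR), and ACTG1, the other cytoplasmic actin, had a log2 fold change of -1.27. The glycolytic enzyme GAPDH and the ribosomal genes RPLP0, RPL4, RPSA and RPS2 had log2 fold changes of -0.91, -1.61, -1.495, -1.49 and -0.52, or -0.32, -1.02, -1.34, -1.66 and -0.02 without the GC trend. Genes often used to normalise PCR measurements, ACTB and GAPDH among them, were therefore not level between the lines. PPIA, a prolyl isomerase, and RPL8 were not called, with log2 fold changes of 0.08 and 0.12, or 0.24 and 0.53, both called, without the GC trend; without the second MDA-MB-231 library RPL8 stood at 0.204 and was called, and without the third at -0.0162 and was not. Many of these genes have near-identical pseudogenes, and how reads were shared among the copies is not given.

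Small differences in this comparison moved with the GC content of the transcript. Coding genes with a mean above 5 CPM in both lines were ordered by GC content and split into 10 equal groups. The median log2 fold change was 0.80 at a median GC of 37.1%, -0.77 at 53.3% and -0.46 at 64.1%. Libraries of one line differed in the same way: the second MDA-MB-231 library lay 0.46 below the other 2 in the group of lowest GC and 0.30 above them in that of highest GC, while no library labelled HCC1937 departed by more than 0.10. Removing the median difference within 20 bins of GC content left 18.6% of features higher and 11.2% lower by 4-fold or more, and 4992 of the 5774 features called at 4-fold were called so in both fits. The values given above without the GC trend come from that fit, which was added after the trend was seen.

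**Figure D5:**
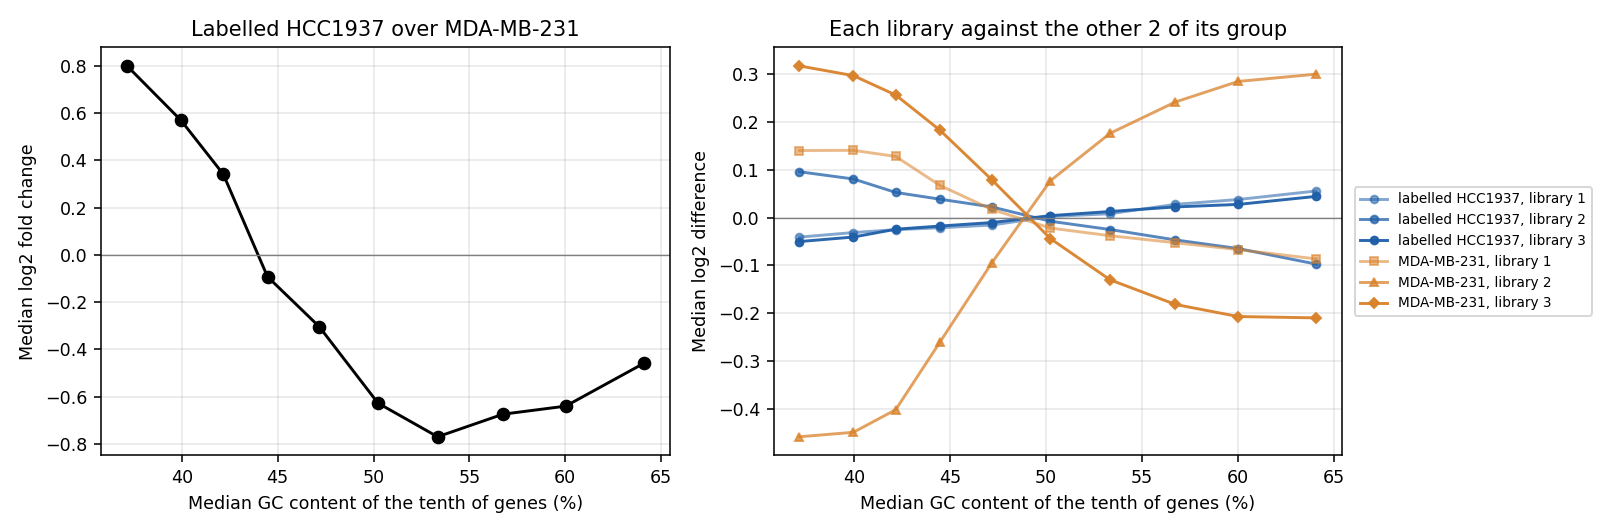
Median log2 fold change of the libraries labelled HCC1937 over MDA-MB-231 in 10 equal groups of genes by GC content (left), and median log2 difference of each library from the other 2 of its group (right). Only coding genes with a mean above 5 CPM in both lines were used. The line-to-line median runs from 0.80 down to -0.77, and the second MDA-MB-231 library runs from -0.46 to 0.30.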

How the data were processed

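RNA of the cultures was poly-A selected and sequenced as 150-base pairs, per the labels' protocols. The authors deposited raw read counts per gene (unit counts), 1 table per human cell line with all its treatment groups. The submitters' processing notes name featureCounts 2.0.1, MultiQC 1.11 and the build GRCh38; the aligner, the annotation release and the use of strand are not given in the sources used here. Of low counts (1 to 20), 57.8 to 59.7% were even, which can arise when both mates of a pair are counted, so halved counts were an alternative. Symbols were matched for 42179 of 78932 features and GENCODE 29 positions for 57356. Rows without a gene name held 0.660 to 0.663% of counts in the libraries labelled HCC1937 and 0.372 to 0.394% in MDA-MB-231. The 6 vehicle libraries were fitted with edgeR 4.0.16 in R 4.3.3 (its low-count filter, TMM factors, quasi-likelihood F test), p-values were adjusted over 18505 features by the Benjamini-Hochberg method, and the SE is the log2 fold change over the square root of F. DESeq2 1.42.0, limma-voom 3.58.1, other scalings, filters and library sets were alternatives. The genes and lists were chosen with earlier results of these data known. The text names the 12 largest differences each way at 20 CPM or more in the higher line, the 8 largest each way at 5 CPM or more in the lower line, the 8 most abundant genes of each line, up to 8 members of a list by level and size of difference, and line-defining and drug-related genes whatever their result; others (among them HOXD3, PTPRC, CDH2, EGF, BTC, EPGN, TEAD1, TEAD4, AJUBA, LATS2, NUAK2, PTPN14 and OCLN) were named after their values were seen. Some genes that this rule takes are not reported here. Promoter sequences are from RefSeq (GRCh38.p14).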

Additional observations from a re-analysis of the deposited data

How the results depend on the processing

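Of 18505 tested features, 14865 had an unadjusted p under 0.05. The number called by 4-fold or more in the libraries labelled HCC1937 was 3461 higher and 2313 lower; with no low-count filter 5297 were higher, a bound of 2-fold gave 5846 higher and 4492 lower, and a bound of 8-fold gave 2159 higher and 1480 lower. Leaving out each library in turn gave 7607 to 8357 called higher, 6702 to 7319 lower, 3689 to 4129 higher by 4-fold and 2415 to 2609 lower by 4-fold. Other scalings, DESeq2, limma-voom, halved counts, a fit over 18 or 17 libraries and the GC correction kept these counts within 1.5 times; DESeq2 shared 5681 of the 5774 features called by 4-fold, limma-voom 5737 and the GC correction 4992. Library numbers did not pair the lines: deviations of libraries with the same number had correlations of -0.090 to -0.034 across genes, against -0.016 to 0.055 for other numbers. With the replicate number as a block, 7436 were called higher and 6484 lower, 3536 and 2342 of them by 4-fold. The median log2 fold change of all tested features was 0.75 without the low-count filter, 0.24 over 18 libraries, 0.26 over 17 and 0.17 with the GC correction. Of 75 list counts of 5 or more, 5 moved by over 1.5 times under some alternative. Under the GC correction the log2 fold change turned to 0.22 for ERBB2, -0.56 for B2M and 0.14 for PTPN14; the correction's own construction removes differences that run with GC content. PTPN14 was 0.0793 with upper-quartile factors and -0.178 to 0.0469 with a library left out, and RPL8 was -0.0162 to 0.204 with a library left out. B2M was -0.0470 with DESeq2's factors and by DESeq2's test, -0.0407 over 18 libraries, -0.0371 over 17 and -0.139 to 0.0405 with a library left out; the cause was not tested. Of 228 tested genes named in the text, 212 kept their direction and their side of the threshold under all alternatives. List medians changed sign for homologous recombination (-0.15 with the GC correction), for simple keratins (-0.37 in the main comparison, 0.05 with the GC correction and 0.96 without a filter) and for immune checkpoint ligands (-0.58 and, without a filter, 0.12). Groups of 3 libraries are too small for an outlier test.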

Other observations

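Apart from the stretches named above, some neighbouring coding genes were silent together in 1 line. In the libraries labelled HCC1937, MAP9, GUCY1B1 and PDGFC (chr4:155342658-156971394) had at most 3 counts each over the 3 vehicle libraries while they reached 2.54 to 66.6 CPM in MDA-MB-231. SPANXC, SPANXA1, SPANXA2, SPANXD and MAGEC1, germ cell genes on chrX:141241463-141909388, were silent there too, with 2.46 to 84.5 CPM in MDA-MB-231; the SPANX genes are near-identical and their counts uncertain. In MDA-MB-231, BNC2, CNTLN and SH3GL2 (chr9:16409503-17797129), on the same chromosome arm as CDKN2A and separate from its silent stretch, were silent, and had 10.8 to 25.6 CPM in the libraries labelled HCC1937. TDRD9, ASPG and KIF26A (chr14:103928462-104180894) were silent in MDA-MB-231 as well, and had 2.20 to 32.9 CPM in the libraries labelled HCC1937. These genes were named after their values were seen, by a rule of at least 3 coding genes in a row. Only coding genes with a mean of at least 1 CPM in either line were considered, so less abundant genes may lie between them.

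Lists not described above gave these counts. Of 18 heat shock genes tested, 10 were called higher and 5 lower in the libraries labelled HCC1937. Of 20 genes of the BCL2 family and death receptors, 9 were called higher and 10 lower. Of 18 genes of G1 control, 3 were called higher and 10 lower, and of 14 of the PI3K pathway 4 and 5. Of 10 genes of ferroptosis and lipid desaturation, 3 were called higher and 7 lower. Of 8 stem cell and aldehyde dehydrogenase markers, 6 were called higher and 1 lower, and of 10 mucins and secreted inhibitors 7 and 2. These shares stand beside 42.2% higher and 37.0% lower over all tested features.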
